A study of Drosophila melanogaster with 4 samples.

Results

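The elements described here are gtwin, gypsy5, gypsy6 (listed as gypsy6_new) and Pifo, 4 endogenous retroviruses among the 124 transposons whose consensus sequences were counted. They were picked by name, with earlier results of these data known, as elements of the gypsy group with few reads in the control libraries. The names, and no read threshold, fix the choice, so other low elements of the group, such as Idefix with 3 and 1 control reads and rover with 7 and 3, lie outside it. The description held least well for gypsy6, which had 26 reads in the control cells. Levels and changes of the 4 elements are therefore a description of these libraries.

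Poly(A) RNA of *Drosophila melanogaster* was sequenced directly on a nanopore device in 4 libraries, 1 per group. In 2 of them the RNA came from whole ovaries in which Tj-GAL4, a GAL4 line that is on in ovarian somatic cells, expressed the vretenoGD construct (knockdown) or arrestin2GD (control). The protein Vreteno has Tudor domains and takes part in the making of piRNAs. The other libraries came from OSCs, somatic follicle cells grown as a line in culture, treated with siPIWI (knockdown) or siGFP (control). *Piwi* encodes the nuclear Argonaute protein of the somatic piRNA pathway. The sources used here give no ages, and mRNAs of *vreteno*, *piwi* and cell type markers were not analysed, so neither the knockdowns nor the tissue labels were checked.

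Elements of the gypsy group carry gag, pol and env genes between 2 long terminal repeats, as retroviruses do. The Env protein of such elements is a membrane fusion protein, and several of them are active in the somatic follicle cells that surround the germline cyst. In these cells they are silenced by Piwi with piRNAs, many of which are made from *flamenco*, a long non-coding RNA locus that holds fragments of such elements. Gtwin is a close relative of gypsy. Pifo entered the reference set from the repeat database Repbase, under a name that carries the tag Dya.

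The transposon reads numbered 2382 in control ovaries, 5156 in *vreteno* knockdown ovaries, and in OSCs 57045 with siGFP and 164243 with siPIWI. For an element with 0 reads the exact upper limit was a share of 0.155% in control ovaries and of 0.00647% with siGFP, counting error only. The floor of 3 reads, which stands in for a control at 0 in some folds below, is 0.126% and 0.00526%. It lies below the exact upper limit, so such a fold is not a lower bound. Each read was taken to count 1 RNA at its 3' end. To correct for depth, knockdown reads were divided by the median knockdown to control ratio of those transposons that had 10 reads or more in each of the 2 libraries. That ratio was 0.903 in ovary and 1.99 in OSCs, and its own 95% interval adds an uncertainty of 0.845 to 1.19 times (ovary) or 0.754 to 1.28 times (OSCs) that all folds below share. The conditions could not be tested against each other, since each had 1 library. All intervals below are exact 95% counting intervals, except where the uncertainty of the depth ratio is added. They describe or compare single libraries, not conditions.

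The 4 elements together were rare in both controls and remained a small share of transposon RNA in both knockdowns. They had 7 reads in control ovaries, 0.294% of transposon reads (0.118 to 0.605), and 29 in knockdown ovaries, 0.562% (0.377 to 0.807). In OSCs they had 31 reads with siGFP, 0.0543% (0.0369 to 0.0771), and 544 with siPIWI, 0.331% (0.304 to 0.360). The OSC intervals are separate and the ovary intervals overlap. The scaled fold of the sum was 4.59 (1.97 to 12.4) in ovary and 8.84 (6.15 to 13.1) in OSCs. The ovary fold rests on the depth ratio of 0.903, whereas total transposon reads had a knockdown to control ratio of 2.16. Measured against that total, as in the shares above, the ovary intervals overlap, so a joint rise in ovary depends on the scaling. Because gypsy6 supplied 26 of the 31 reads in siGFP cells, the OSC fold without it was 46.9 (19.9 to 145), on 5 and 465 reads. Gypsy6 was left out here for its high control count, after the values were seen, and the interval does not cover that choice. In bulk RNA a difference in reads cannot be assigned to more expressing cells or to more RNA per cell.

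**Figure D1:**
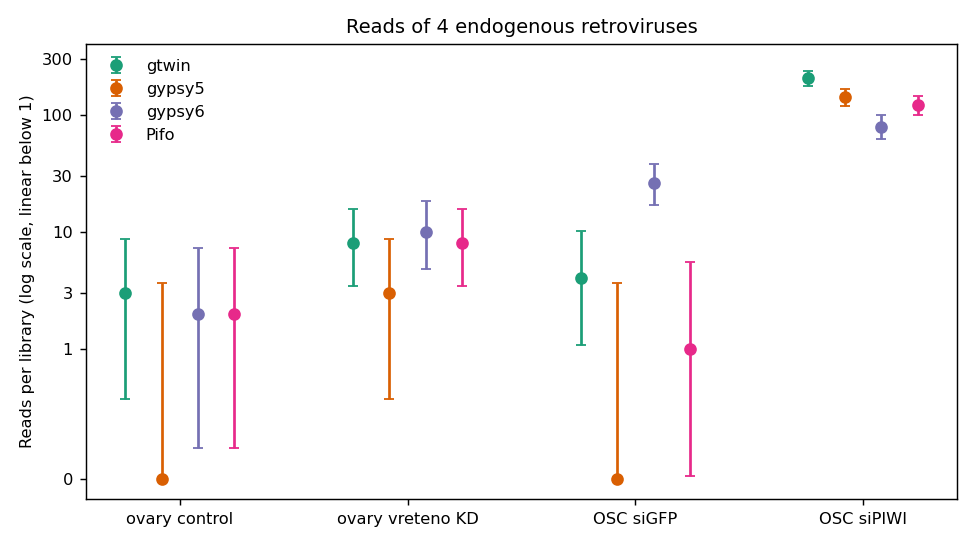
Reads of gtwin, gypsy5, gypsy6 and Pifo (y axis, logarithmic above 1 read and linear below) in each of the 4 libraries (x axis), with exact 95% Poisson intervals. All 4 are at 10 reads or fewer in both ovary libraries, gypsy6 stands above the others in siGFP OSCs with 26 reads, and in siPIWI OSCs they range from 79 to 204 reads.

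Gtwin had 3 reads in control ovaries, 8 in knockdown ovaries, 4 in OSCs with siGFP and 204 with siPIWI. It was the most abundant of the 4 in siPIWI cells, with 0.124% of transposon reads (0.108 to 0.142), rank 23 of the 124 transposons, against rank 62 in siGFP cells. The scaled fold was 25.7 (9.88 to 95.2) in OSCs and 2.95 (0.709 to 17.3) in ovary, where no difference was detectable at this depth. The OSC fold was 8.70 times the ovary fold, with a counting interval of 1.05 to 59.3. With the uncertainty of both depth ratios added, that interval became 0.668 to 90.1, so the folds were not shown to differ.

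Gypsy, the relative of gtwin, had 5 and 367 reads in ovary and 377 and 11386 in OSCs. Its OSC fold of 15.2 (13.7 to 16.9) lay within the interval of gtwin. Its ovary fold of 81.3 (34.5 to 252) lay above that of gtwin, with separate intervals. Gtwin made up 1.05% (0.287 to 2.67) of the reads of both elements in siGFP cells, 1.76% (1.53 to 2.02) in siPIWI cells and 2.13% (0.925 to 4.16) in knockdown ovaries. These 3 intervals overlap. In control ovaries gtwin had 3 of 8 such reads, 37.5% (8.52 to 75.5), an interval above the other 3. The sources used here do not say how reads that match both elements were assigned, and the part of misplaced gypsy reads in the gtwin counts was not tested.

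Gypsy5 had 0 reads in control ovaries, 3 in knockdown ovaries, 0 in OSCs with siGFP and 141 with siPIWI. It thus went from no read among 57045 to 0.0858% of transposon reads (0.0723 to 0.101), rank 28. Set against the floor of 3 reads in place of 0, its level in siPIWI cells was 23.7-fold higher. The exact lower limit was 19.0, or 14.3 with the uncertainty of the depth ratio added. Both ovary libraries were at or below 3 reads, so no fold is given there.

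Pifo had 2 reads in control ovaries, 8 in knockdown ovaries, 1 in OSCs with siGFP and 120 with siPIWI. The scaled fold was 60.5 (10.6 to 2407) in OSCs and 4.43 (0.884 to 42.8) in ovary, where the interval includes 1. Its share in siPIWI cells was 0.0731% (0.0606 to 0.0874), rank 33, and overlapped that of gypsy5. The ratio of the OSC fold to the ovary fold was 13.7 (0.603 to 811).

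Gypsy6 behaved differently. It had 2 reads in control ovaries, 10 in knockdown ovaries, 26 in OSCs with siGFP and 79 with siPIWI, so RNA placed on gypsy6 was already present in control cells. Of the 26 siGFP reads, 20 ended within 25 nt of position 652, close to the 5' end, and 4 in the last 10% of the consensus. Over all reads the scaled fold in OSCs was 1.53 (0.972 to 2.48), and over reads in the last 10% it was 3.02 (1.04 to 12.0). The share of gypsy6 in transposon reads was 0.0456% (0.0298 to 0.0668) with siGFP and 0.0481% (0.0381 to 0.0599) with siPIWI. Within the same pair of OSC libraries the depth ratio cancels. There the fold of gtwin over all reads was 16.8 times that of gypsy6 (5.52 to 67.6), and the fold of Pifo 39.5 times (6.16 to 1632). For gypsy5 the same ratio had a lower limit of 11.2. In ovary gypsy6 had the only fold of the 4, over all reads of an element, whose counting interval lay above 1, at 5.54 (1.18 to 52.0). With the uncertainty of the depth ratio added, its lower limit was 0.997, and scaled to total transposon reads the fold was 2.31 (0.492 to 21.7), so this difference rests on the scaling. The ratio of its OSC fold to its ovary fold was 0.277 (0.0278 to 1.43), so the comparisons were not shown to differ.

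By level in siPIWI cells the order was gtwin, gypsy5, Pifo and gypsy6, at 27.5, 17, 13.3 and 10.1 reads per kb of consensus. Only the neighbours gypsy5 and Pifo had overlapping shares of transposon reads. In knockdown ovaries the counts of 8 (gtwin), 3 (gypsy5), 8 (Pifo) and 10 (gypsy6) reads had overlapping Poisson intervals, so no order could be drawn. In siGFP cells gypsy6, at 3.32 reads per kb, lay above gtwin at 0.540 and Pifo at 0.111, with separate Poisson intervals.

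Of the transposons that had 10 reads or more in either library, 24.7% (18 of 73) were at least 4-fold higher in OSCs on the log2 scale with a pseudocount of 1 read. Of the 4 elements, 3 were, gypsy5 at 6.17 (rank 2 of 73), Pifo at 4.94 (rank 5) and gtwin at 4.38 (rank 6). Gypsy6, at 0.60, was in the middle at rank 35, and the median of the 73 was 0.27. In ovary 26.7% (12 of 45) were at least 4-fold higher. Gypsy6 alone of the 4 passed the read minimum there, and its log2 ratio of 2.01 is just past the 4-fold mark. It fell to 1.97 when the control library was scaled in place of the knockdown. Since the elements were named with these values known, nothing is read from the counts.

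The other elements of the gypsy group with env were taken from a list of 17 names, of which 15 were in the files. Gtwin, gypsy5 and gypsy6 are on this list and Pifo is not. Without gtwin, gypsy5 and gypsy6, 9 listed elements passed the read minimum in OSCs, of which 3 reached 4-fold, and their median log2 ratio was 1.90. In ovary 8 passed, 4 reached 4-fold and the median was 2.09. Of all transposons past the minimum, 24.7% (18 of 73) reached 4-fold in OSCs and 26.7% (12 of 45) in ovary. Their median log2 ratios were 0.27 in OSCs and 0.26 in ovary. None of the listed elements was at least 4-fold lower in either pair.

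**Figure D2:**
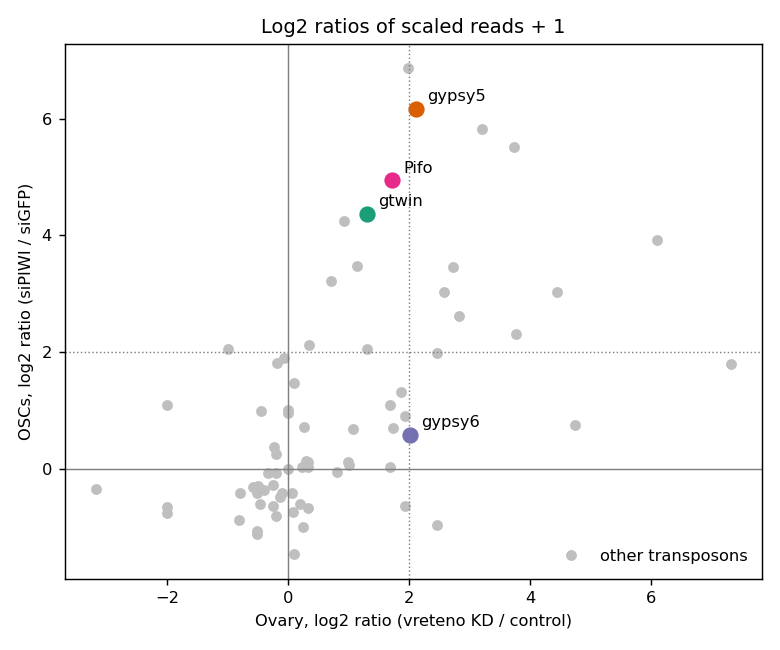
Log2 ratio of knockdown to control in ovary (x axis) and in OSCs (y axis), from scaled reads with 1 read added, for the 73 transposons with at least 10 reads in 1 of the OSC libraries; coloured points are the 4 elements, solid lines mark no change and dotted lines 4-fold. Gypsy5, Pifo and gtwin lie high on the OSC axis at 6.17, 4.94 and 4.38, gypsy6 lies at 0.60, and the ovary value of gypsy5 rests on 0 and 3 reads.

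The transposons with the most similar pair of log2 ratios were found by the Euclidean distance over both comparisons among the same 73. For gtwin the nearest was '297' at a distance of 0.40, another env-carrying element, with 13 and 23 reads in ovary and 87 and 3306 in OSCs. Pifo followed at 0.70 and flea at 0.92. For Pifo the nearest were gtwin, '297' at 1.06 and gypsy5 at 1.29. For gypsy5 the nearest were '412' at 0.70, Tabor at 1.15 and Pifo, although the ovary value of gypsy5 is set by the pseudocount. For gypsy6 the nearest were rover at 0.30, Ivk at 0.33 and gypsy11 at 0.60, all with fewer than 24 reads in every library. Pifo thus stood on the lists of both gtwin and gypsy5, while gypsy6 stood on no list of the other 3. Each distance rests on 4 libraries, and the control libraries contribute 0 to 4 reads for gtwin, gypsy5 and Pifo.

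Reads ended at few positions, most of them close to the 3' end of the consensus. In siPIWI cells 94.2% of Pifo reads (88.4 to 97.6), 88.7% of gtwin reads (83.6 to 92.7) and 86.5% of gypsy5 reads (79.8 to 91.7) had their end within the last 10% of the sequence. For gypsy6 the share was 30.4% (20.5 to 41.8), with an interval apart from the other 3. Over the 44 transposons with at least 50 reads in that library the median share was 79.4%, and the most used position lay in the last 10% for 37 of them. Gypsy6 was 1 of the 7 in which it did not.

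**Figure D3:**
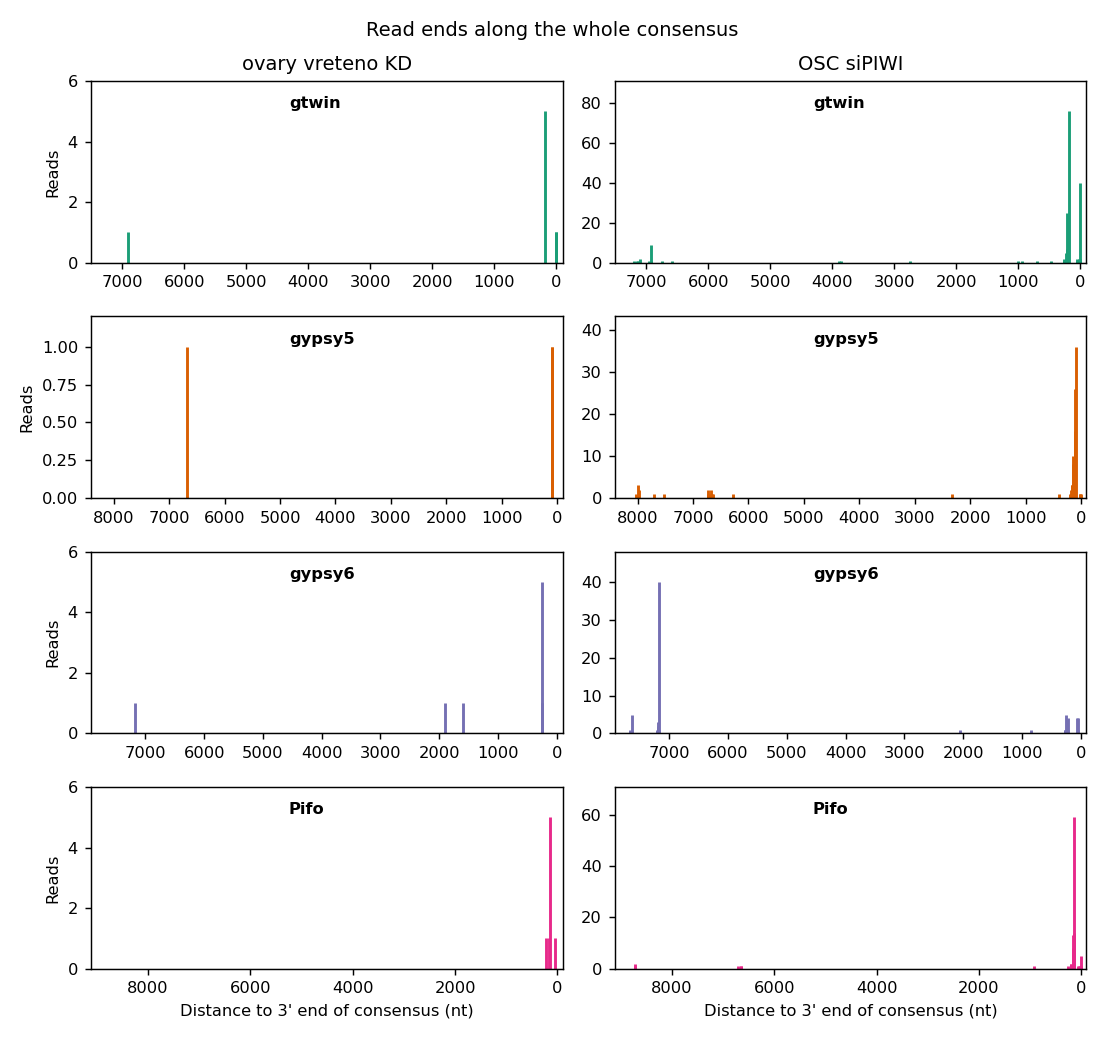
Number of reads ending at each position (y axis) against the distance of the position from the 3' end of the consensus in nt (x axis, 3' end on the right), for the 4 elements in knockdown ovaries (left) and siPIWI OSCs (right). Gtwin, gypsy5 and Pifo reads gather at the 3' end, while the tallest gypsy6 position in siPIWI cells lies 7180 nt from it.

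Reads of gtwin, 7411 nt long, ended most often at position 7224, counted from 1 at the 5' end of the consensus. This position held 76 of 204 reads in siPIWI cells, 5 of 8 in knockdown ovaries and 2 of 3 in control ovaries. Position 7201 came next upstream, with 25 reads in siPIWI cells and 1 read each in siGFP cells and control ovaries. When positions less than 76 nt apart were joined, positions 7143 to 7224 held 124 of the siPIWI reads, or 60.8% (53.7 to 67.5). Positions 7357 to 7411 held 55, or 27.0% (21.0 to 33.6). All gtwin reads of the 3 smaller libraries ended at positions that were also used in siPIWI cells.

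Of the reads in that last stretch, 40 ended on the final base of the consensus, 7411. They were 19.6% of gtwin reads in siPIWI cells, and 1 read each ended there in siGFP cells and in knockdown ovaries. The reference stops at this base, so no end can be placed further on. Whether RNAs with ends placed there ran past it was not tested. Such ends were uncommon elsewhere. Only 7 of the 44 transposons with at least 50 reads had any read at their final base, and Repbase_FB4 alone had a larger share, 24.0% of 50 reads. Of the 7 other listed env elements with at least 50 reads, '297' alone had any, with 129 reads or 3.90% of its own.

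Gypsy5, 8317 nt long, had its ends spread over several close positions. In siPIWI cells position 8222 held 36 of 141 reads, 8217 held 26, 8212 held 16 and 8180 held 10. Together positions 8119 to 8222 held 118 reads, or 83.7% (76.5 to 89.4), and 3 reads ended nearer the 3' end, at 8304 to 8313. Of the 3 reads in knockdown ovaries, 1 ended at 8222, 1 at 8217 and 1 at 1642. A small upstream set at 1582 to 1672 held 9 siPIWI reads.

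Pifo, the longest consensus of the 4 at 9019 nt, had close to an even split between 1 position and all others. Position 8877 held 59 of 120 reads in siPIWI cells (49.2%, 39.9 to 58.4), 5 of 8 in knockdown ovaries and 1 of 2 in control ovaries. The median share of the most used position was 28.4% over the 44 transposons. Positions 8871, 8851 and 8847 held another 14, 13 and 8 reads. Positions 8764 to 8877 held 104 reads, or 86.7% (79.3 to 92.2), and 9 reads ended at 8956 to 9015. The single siGFP read ended at 2338, so all 113 siPIWI reads in the last 10% stood against 0. With the floor of 3 reads in place of 0 they were 19.0-fold higher, and the exact lower limit was 15.2.

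**Figure D4:**
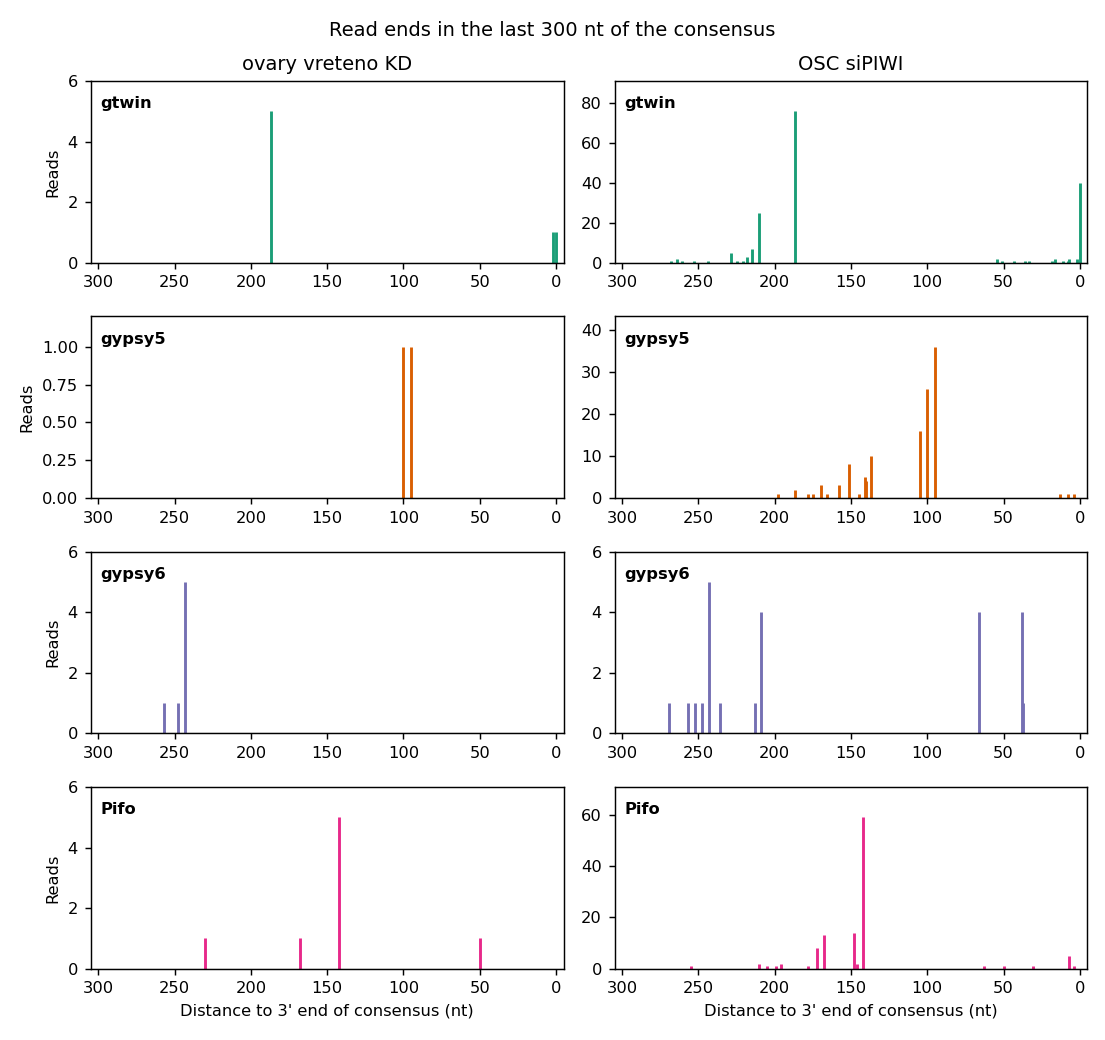
Number of reads ending at each position (y axis, a separate scale in each panel) in the final stretch of the consensus, against the distance from its 3' end in nt (x axis), in knockdown ovaries (left) and siPIWI OSCs (right). The tallest position is shared by both libraries for gtwin at 187 nt, gypsy6 at 243 nt and Pifo at 142 nt from the end, and gtwin alone has a tall position on the final base.

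The most used 3' position thus lay inside the consensus and short of its end, by 187 nt in gtwin, 95 nt in gypsy5 and 142 nt in Pifo. In the 7 other listed env elements with at least 50 siPIWI reads this distance ranged from 16 to 209 nt. In a retroviral transcript the poly(A) site lies within the 3' terminal repeat, before its last bases.

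The same spacing recurred at the 5' end. In gtwin 7 positions before 600 held reads, and 6 of them had a partner exactly 6916 nt downstream that also held reads, against 3 at the next best spacing. The pairs included 308 with 7224, 285 with 7201 and 495 with 7411. A spacing of 6916 nt leaves 495 nt for a terminal repeat. Position 495 is itself paired with the final base, so its match to this length follows from that pair and is no separate result. In gypsy5 all 3 early positions had a partner 7887 nt downstream, 335 with 8222, 330 with 8217 and 279 with 8166, which leaves 430 nt. The next best spacing matched 2 of the 3. In gypsy6 and Pifo more than 1 spacing matched equally well, with 2 early positions each, so none is given. The window of 600 nt and the search were set after the positions had been seen.

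Because both repeats of such an element are near identical, a read may be placed on either. In siPIWI cells 16 gtwin reads ended in the first 495 nt and 180 in the last 495 nt, so 8.16% (4.74 to 12.9) of the reads in both stretches were placed at the 5' end. For gypsy5 the numbers were 6 and 122, or 4.69% (1.74 to 9.92). With these reads counted as 3' ends, 96.6% (93.1 to 98.6) of gtwin reads and 90.8% (84.7 to 95) of gypsy5 reads ended in the first stretch or in the last 10%. Between the stretches 8 gtwin reads and 13 gypsy5 reads ended. The stretch lengths were inferred from these same read ends, and the repeat sequences were not examined. Whether reads at the 5' end were misplaced, came from RNAs that end there, or came from short copies was not tested.

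Gypsy6, 7832 nt long, had most of its OSC reads at a position close to its 5' end. Position 652 held 16 of 26 reads in siGFP cells and 40 of 79 in siPIWI cells, with a few more at 641, 642 and 653. Within 25 nt of 652 lay 20 of the siGFP reads, 76.9% (56.4 to 91.0), and 46 of the siPIWI reads, 58.2% (46.6 to 69.2). In ovaries 1 of 10 knockdown reads (interval 0.253% to 44.5%) and 0 of 2 control reads (upper limit 84.2%) ended within 25 nt of 652. The interval of the knockdown ovaries is separate from both OSC intervals. The site was chosen as the most used position in siPIWI cells, so a high share there was fixed by the choice. The most used position in knockdown ovaries was 7589, with 5 of 10 reads, and 5 siPIWI reads ended there too, but no siGFP read.

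Split by where reads ended, gypsy6 differed in its fold as well, though not beyond counting error. Reads ending in the last 10% went from 4 to 24 in OSCs, a scaled fold of 3.02 (1.04 to 12.0). Those within 25 nt of 652 went from 20 to 46, a fold of 1.16 (0.672 to 2.07). The ratio of the 2 folds was 2.61 (0.745 to 11.6). In ovary, 1 and 7 reads ended in the last 10%, a fold of 7.75 (0.996 to 349). For Pifo 1 and 8 ovary reads ended in the last 10%, a fold of 8.86 (1.19 to 393). The 3' reads of gypsy6 formed 2 sets in siPIWI cells, 15 at 7508 to 7625 and 9 at 7757 to 7795. This split was made after the positions had been seen.

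**Figure D5:**
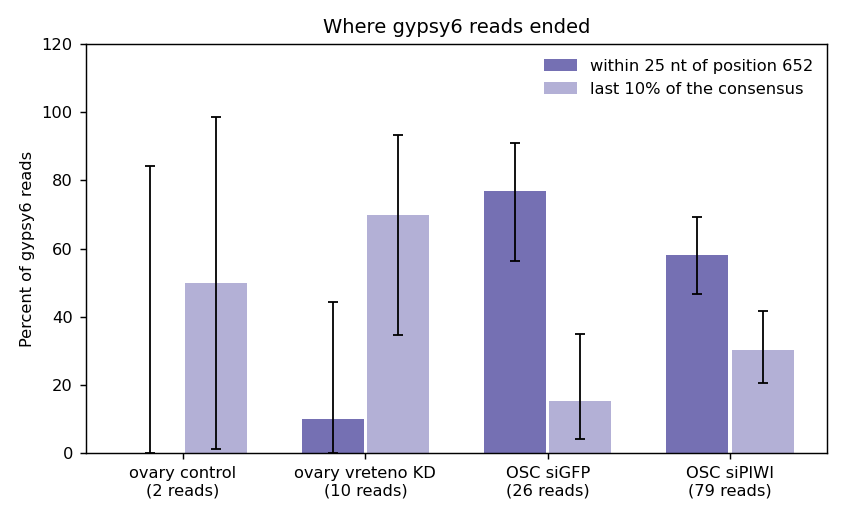
Percent of gypsy6 reads (y axis) that ended within 25 nt of position 652 (dark bars) or in the last 10% of the consensus (light bars) in each library (x axis, with its number of gypsy6 reads), with exact 95% binomial intervals. The dark bar is the higher one in both OSC libraries, at 76.9% and 58.2%, and the light bar in knockdown ovaries, at 70.0%.

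Copies of the elements in the reference genome were read from the Ensembl annotation of assembly BDGP6. The strains and cells sequenced may carry others, and the files do not say which copy a read came from. Gtwin had 20 annotated copies, of which 15 were under 1000 nt and 3 reached 90% of the consensus length. Of these 3, both copies on chromosome X had exactly the 7411 nt of the consensus. The copy gtwin{}19 lies at X:1628029-1635439 on the minus strand, where it overlaps the genes *br* and *Mur2B* but no annotated exon, so it is intronic. The other lies at X:21836372-21843782 on the minus strand and overlaps no gene. The third, on 2L, spans 14327 nt.

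Gypsy5 had 10 annotated copies and none of 90% of its consensus length. The longest, gypsy5{}103 at X:11194484-11201847 on the minus strand, had 7364 nt, or 88.5%, and overlaps no gene. Gypsy6 had 16 copies, of which 1 reached 90%, gypsy6{}RR48376 at 3L:27370557-27378210 on the minus strand, 7654 nt long. It overlaps *Dbp80*, in an intron. Of the Pifo element 0 annotated copies were found by name.

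All 3 annotated families had a copy in *flamenco*, annotated as lncRNA:flam on the plus strand at X:21631891-21790731. Gtwin had 1 fragment there (575 nt, X:21637141-21637715) and gypsy5 1 fragment (299 nt, X:21669671-21669969), both overlapping annotated exons of the locus. Gypsy6 had 3, the longest at X:21733229-21739733 with 6505 nt or 83.1% of the consensus, none overlapping an exon. All 5 lie on the minus strand, opposite to the locus. A fragment in this orientation yields *flamenco* RNA that is antisense to the element, the orientation in which piRNAs pair with its transcripts.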

How the data were processed

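The deposited files give 1 whole-number count per position of each of 150 reference sequences (672432 positions) for each of 4 direct RNA libraries, with columns for sequence, position and value per the file headers. The submitters' processing notes name minimap2, without its settings, any filter or how multiply matching reads were placed. From the values, each count was read as a number of read 3' ends at that position, which differs from the base coverage first assumed. Of the 150 sequences 26 were not transposons and were kept out of the totals.

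Reads were summed per element. Folds are knockdown reads divided by the depth ratio and by control reads, with exact conditional 95% intervals; ratios of folds have exact conditional intervals, and shares have Clopper-Pearson intervals. Where the control was at 0, a floor of 3 reads (per library) stood in for it, and the exact lower limit is given beside it. The intervals cover counting error only, except where the uncertainty of the depth ratio was added. Log2 ratios used a pseudocount of 1 read and a minimum of 10 reads in the library with more. A fold of 4 on that scale counted as higher. Elements besides the 4 were named as the 3 nearest in both log2 ratios, or from a list of env elements, and otherwise chosen after their values were seen. The members, lists and splits were chosen with earlier results of these data known. Samples were grouped by genotype or treatment. Alternatives were other scalings, a pseudocount of 10, read minimums and other end windows. Python 3.11.15, scipy 1.17.1 and pandas 2.3.3 were used, and the interval code was tested on simulated data. That simulation took the depth ratio as known. It left out control counts as low as those of gtwin, gypsy5 and Pifo, or of gypsy6 in ovary.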

Additional observations from a re-analysis of the deposited data

How the results depend on the processing

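No paired analysis was possible because each group had 1 library, and for the same reason none could be left out. All 46 alternative log2 ratios of the 4 elements were above 0. Gypsy5 in ovary, at or below 3 reads, got none. Reads ending upstream of the last 10% were not among the alternatives run in ovary. There Pifo went from 1 read to 0, gtwin and gypsy5 from 0 to 1, and gypsy6 from 1 to 3. In OSCs gtwin, gypsy5 and Pifo stayed at least 4-fold higher under every other scaling, pseudocount and position choice run, except for Pifo reads ending upstream of the last 10% (log2 ratio 1.18, 1 and 7 reads). Upstream reads gave 2.65 for gtwin and 3.40 for gypsy5, and a pseudocount of 10 reads gave 3.02 for gypsy5. Gypsy6 in OSCs was at 1.39 with reads in the last 10% alone, and at 0.07 when scaled to total transposon reads. In ovary the log2 ratio of gypsy6 left the 4-fold mark with total scaling (0.91), a pseudocount of 10 reads (0.81), without its main position (1.12) and with the control scaled in place of the knockdown (1.97, chosen after seeing the data, as were the upstream and last 10% splits). Scaled to non-transposon reads, gypsy6 in ovary was at 2.55, and with reads in the last 10% alone at 2.13. The number of transposons at least 4-fold higher in ovary was 7 with total scaling and 7 with a pseudocount of 10 reads, against 12. Scaled to non-transposon reads it was 16. Shares of ends in the last 5% or 30% stayed within the intervals of the last 10%. Control counts of 0 to 4 reads for gtwin, gypsy5 and Pifo limit the precision of every fold.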

Other observations

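Several other elements with gypsy-number names also had few reads. Gypsy11 had 0 and 2 reads in ovary and 3 and 15 in OSCs, gypsy4 had 2 and 4 reads in ovary and 4 and 7 in OSCs, and gypsy10 had 1 read in each knockdown library and 0 in each control. Gypsy7, gypsy8 and gypsy9 had 0 reads in all 4 libraries.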
